A study of Homo sapiens with 8 samples.

Results

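The 7 genes that encode the inhibitors of cyclin-dependent kinases (CDKs) were followed in rituximab-sensitive Raji cells and rituximab-resistant Raji-4RH cells, with and without chidamide. They were the 3 CIP/KIP genes, CDKN1A (p21), CDKN1B (p27) and CDKN1C (p57), and the 4 INK4 genes, CDKN2A (p16 and ARF), CDKN2B (p15), CDKN2C (p18) and CDKN2D (p19). They were taken by symbol, with earlier results of these data known, and they were 7 of the 18143 genes whose values could be assigned to a gene, in a table of 63967 rows. Raji is an established Burkitt lymphoma cell line, and Raji-4RH is the rituximab-resistant line paired with it. Chidamide is an inhibitor of histone deacetylases (HDACs). Each line was cultured for 24 h with the vehicle DMSO or with 3 μM chidamide, at passages 2-3, and RNA was extracted after the cells had been harvested by flow sorting. Each of the 4 groups, Raji DMSO, Raji chidamide, Raji-4RH DMSO and Raji-4RH chidamide, had 2 RNA-seq libraries. Nothing states that the 2 libraries came from separate cultures, so the p-values measure the spread between these libraries, which may be technical. The comparison of lines rests on 1 pair, so rituximab resistance and any other difference between these lines cannot be told apart.

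CDK inhibitors hold the cell cycle at its checkpoints by binding CDKs. The CIP/KIP proteins bind cyclin and CDK together and act on several complexes, whereas the INK4 proteins bind CDK4 and CDK6 and keep the D-type cyclins from activating them. When these kinases are inhibited, the retinoblastoma protein and its relatives stay bound to E2F factors, and genes for DNA replication are kept low. CDKN1A is a textbook target of p53 and is also known as a gene that HDAC inhibitors raise, and in Burkitt lymphoma the MYC protein, which represses CDKN1A and CDKN2B, is overexpressed.

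Expression was measured as FPKM, the fragments per kilobase of gene length, scaled to library depth. Levels of different genes can be compared only roughly, since the length is that of joined exons, whichever transcripts the cells use. Library depth ran from 13991697 to 21193441 reads, the lowest in Raji-4RH chidamide replicate 1. Across the genes tested, every library correlated best with the other library of its own group (Pearson r from 0.9923 to 0.9985), and the Raji-4RH chidamide pair was the least alike. In 5 of the 7 genes the values stood in the row of the gene label. In CDKN2A and CDKN2B they stood 1 row lower, and the distance between labels and values grows along the table. The labels of 4 neighbouring genes that would not be expected in these cells were read the same way: CER1, IFNA5, IFNA16 and IFNK held at most 1 read per library in the row below their label, against up to 15.0, 32.9, 10.5 and 16.9 FPKM in the row of the label itself. In the row of its own label CDKN2A was listed at 0 in all 8 libraries. The B cell markers CD22, CD79A, CD79B, PAX5, CD74 and BLNK were present in all 8 libraries, from 3.87 to 11.6 FPKM for BLNK, the lowest of these, and from 516 to 1317 FPKM for CD74, the highest. Of 17 markers of other cell types, 15 had values and 9 stayed under 1 FPKM in all libraries, among them EPCAM, KRT19 and GNLY.

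On the GRCh38 build with GENCODE v29, CDKN1A lies at chr6:36676460-36687339 on the plus strand, CDKN1B at chr12:12715058-12722371 (plus), CDKN1C at chr11:2883213-2885773 (minus), CDKN2A at chr9:21967753-21995301 (minus), CDKN2B at chr9:22002903-22009363 (minus), CDKN2C at chr1:50960745-50974633 (plus) and CDKN2D at chr19:10566462-10569059 (minus). CDKN2A and CDKN2B are neighbours on chromosome 9. The lengths in the table equal the joined exons of GENCODE v29 in 6 genes and differ in CDKN1C, where the table gives 2586 bases and GENCODE gives 2478. Reads from the antisense gene DINOL, which shares 146 exonic bases (4.79%) with CDKN1A, and from CDKN2B-AS1, which shares 341 exonic bases (7.88%) with CDKN2A, cannot be told from those of the gene itself unless strand was counted, and whether it was is not given in the sources used here. Of the 50-base stretches of CDKN2A transcripts, 7.17% also occur in CDKN2B-AS1 or CDKN2B, and 0.765% of those of CDKN2B occur in CDKN2A, so these shares of both genes are uncertain. The CDKN2A value is a value for the whole gene and cannot separate p16 from ARF.

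Chidamide treatment changed the transcript level of most of these genes, and CDKN1A changed the most. Of the 6 genes that could be tested, CDKN1A, CDKN1B, CDKN2B and CDKN2D were higher and CDKN2C was lower in both lines. CDKN2A was lower in treated Raji-4RH cells, and in Raji its difference was not past the threshold. In Raji-4RH cells, therefore, 4 genes were higher and 2 were lower, where 43.3% of all 10710 genes tested were higher and 31.6% were lower (74.9% in either direction). In Raji cells, 4 were higher, 1 was lower and 1 was not called, where 31.5% of all genes were higher and 28.5% were lower (60.0% in either direction). A gene was called at a Benjamini-Hochberg adjusted p under 0.05 in limma on log2(FPKM + 1). Of the genes called in Raji-4RH cells 57.9% were higher, and 47.8% with quantile normalization. In Raji cells these shares were 52.5% and 43.5%. Against these shares, the counts alone say little about the members, and CDKN2B could only be tested because of its level in 1 group. In bulk RNA, fewer cells with a transcript and less of it per cell cannot be told apart. CDKN1C held 0 to 3 reads per library, 0 in 5 of the 8 libraries, and was not tested. The highest value was 0.0563 FPKM, or 3 reads, in Raji chidamide replicate 1, and in the 5 libraries at 0 that count allows up to 0.0576 to 0.0829 FPKM (3 reads). In the row placed for it, CDKN1C was not detectable at this depth beyond these reads. The symbol of a member stood in 8 rows, against 7 genes placed. Which member the further row names is not given here, and whether it holds reads of CDKN1C or of another member was not tested.

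Chidamide minus DMSO in the median over all genes tested was 0.09 on the log2 scale in Raji-4RH cells and 0.02 in Raji cells, against which the changes of the members are to be read. With 2 libraries per group, an exact permutation test of a single gene cannot go below a two-sided p of 0.333, and the limma p-values borrow their spread from the whole table.

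**Figure D1:**
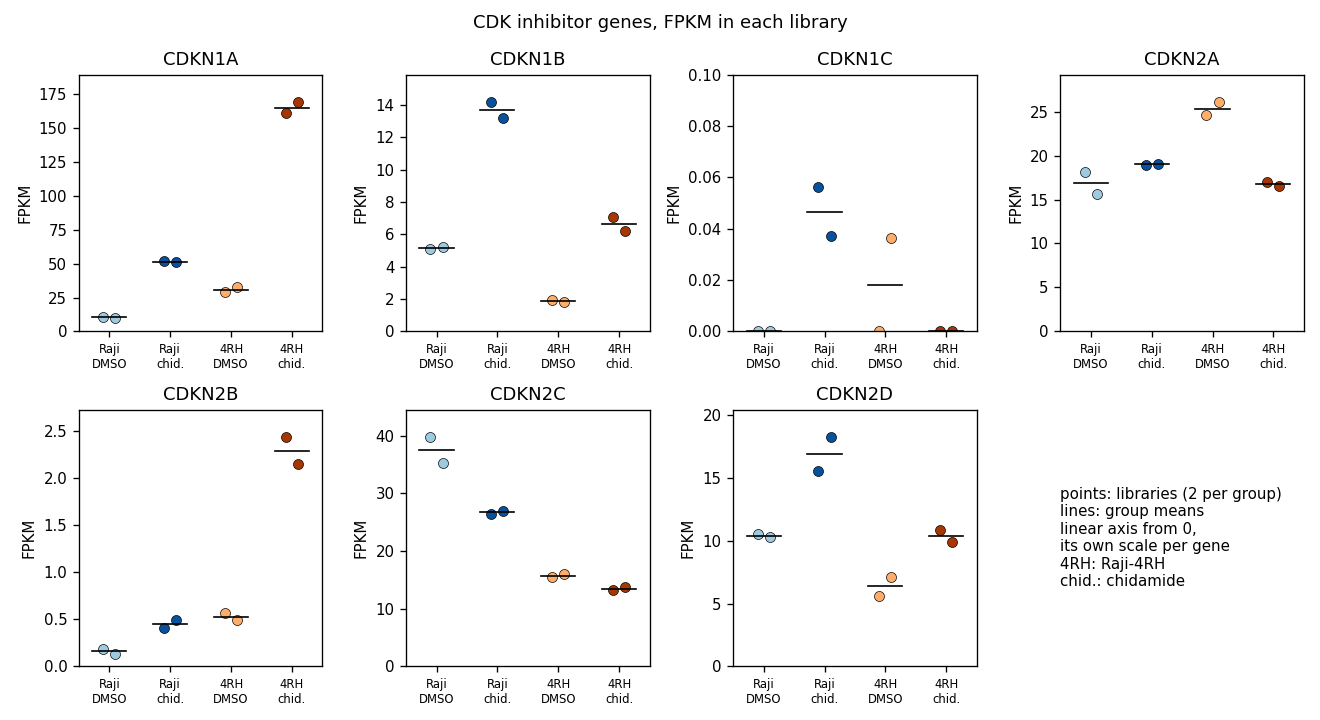
Each panel plots FPKM (y axis, linear from 0, its own scale per gene) of 1 CDK inhibitor gene in the 4 groups (x axis), with points for the 2 libraries of a group and lines for the group mean. CDKN1A runs from about 10.4 FPKM in Raji DMSO to 165 FPKM in Raji-4RH chidamide. CDKN1C stays between 0 and 0.0563 FPKM, which is 0 to 3 reads per library.

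The promoters of the 4 genes that were higher in both lines are shown because these members moved together. The 250 bases before the transcript start of RefSeq on GRCh38.p14 are given 5′ to 3′ on the strand of the gene, with the letters of a GC box (GGGCGG, the site of SP1-type factors) or a CCAAT box (CCAAT) in capitals on either strand.
CDKN1A at chr6:36678464-36678713, plus strand: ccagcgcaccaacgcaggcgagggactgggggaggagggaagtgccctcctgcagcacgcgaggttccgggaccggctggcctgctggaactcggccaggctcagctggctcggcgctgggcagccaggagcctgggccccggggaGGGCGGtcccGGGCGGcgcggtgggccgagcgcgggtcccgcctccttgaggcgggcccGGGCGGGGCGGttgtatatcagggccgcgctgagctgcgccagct
CDKN1B at chr12:12717118-12717367, plus strand: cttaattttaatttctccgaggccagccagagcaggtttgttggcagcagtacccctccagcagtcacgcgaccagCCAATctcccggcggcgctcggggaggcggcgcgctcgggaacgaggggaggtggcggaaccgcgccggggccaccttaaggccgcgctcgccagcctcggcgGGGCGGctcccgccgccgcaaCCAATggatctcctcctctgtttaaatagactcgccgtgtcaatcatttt
CDKN2B at chr9:22009306-22009555, minus strand: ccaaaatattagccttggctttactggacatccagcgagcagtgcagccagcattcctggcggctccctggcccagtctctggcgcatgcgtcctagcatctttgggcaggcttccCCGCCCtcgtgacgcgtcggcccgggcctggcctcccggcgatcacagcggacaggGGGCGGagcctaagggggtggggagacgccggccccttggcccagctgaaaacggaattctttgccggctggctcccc
CDKN2D at chr19:10568980-10569229, minus strand: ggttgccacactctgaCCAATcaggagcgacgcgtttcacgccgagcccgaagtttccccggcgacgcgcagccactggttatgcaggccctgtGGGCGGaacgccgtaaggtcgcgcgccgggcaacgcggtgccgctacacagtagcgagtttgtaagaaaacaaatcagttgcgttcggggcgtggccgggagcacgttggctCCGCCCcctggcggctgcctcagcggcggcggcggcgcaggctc
The windows of 300 bases, with 50 bases past the start, were searched on both strands for the GC box, the CCAAT box, the TATA box (TATAAA) and a forkhead site (TGTTTAC). The CDKN1A window held 4 GC boxes, starting at positions -104, -94, -45 and -40 from the transcript start, the last 2 of which share 1 base. The CDKN1B window held 1 GC box and 3 CCAAT boxes, 1 of them past the start. The CDKN2B window held 2 GC boxes, and the CDKN2D window held 3 GC boxes and 1 CCAAT box. Of 35116 windows of genes in RefSeq, 44.95% held a GC box, 15.77% held at least 3, 34.61% held a CCAAT box, 11.53% a TATA box and 3.42% a forkhead site. No TATA box or forkhead site in these letters occurs in any of the 9 windows of the 6 members with a window; CDKN1C has none in the table. A GC box also occurred 6 times in the window of 1 of the 3 CDKN2C starts, a gene whose level fell with chidamide.

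**Figure D2:**
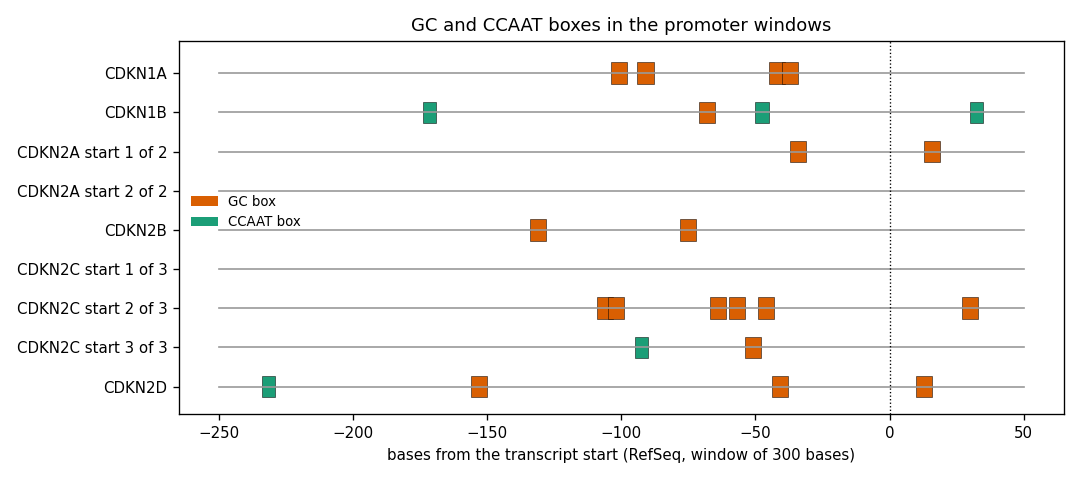
The 9 promoter windows of 6 members are drawn as lines against the distance in bases from the transcript start (x axis, dotted at the start), with orange bars for GC boxes and green bars for CCAAT boxes. The CDKN1A window holds 4 GC boxes and the second CDKN2C start 6, while the second CDKN2A start and the first CDKN2C start hold none.

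CDKN1A encodes p21, which binds and inhibits CDK2 and CDK1 complexes and, through PCNA, DNA replication. It stood at 10.7 and 10.1 FPKM in the 2 Raji DMSO libraries and at 51.6 and 51.4 FPKM in the 2 Raji chidamide libraries. In Raji-4RH cells it stood at 28.8 and 32.6 FPKM with DMSO and at 161 and 169 FPKM with chidamide. The 4 groups do not overlap, and Raji-4RH cells lie above Raji cells with either treatment. The ratio of the group means was 4.94 in Raji and 5.37 in Raji-4RH cells. On the log2(FPKM + 1) scale, chidamide minus DMSO was 2.20 ± 0.07 (SE) in Raji (adjusted p = 2.08e-07, limma) and 2.39 ± 0.07 in Raji-4RH cells (adjusted p = 4.33e-08, limma). By the size of its log2 change it ranked 49th among all 10710 genes in Raji and 78th in Raji-4RH cells. The difference between the changes in the 2 lines was 0.19 (95% interval -0.03 to 0.41; adjusted p = 0.133, limma), which did not pass the threshold, but with quantile normalization it was 0.37 (adjusted p = 0.0162, limma). The value in treated Raji-4RH cells was reached from a DMSO level 2.95 times that of Raji (1.47 ± 0.07 SE on the log2 scale, adjusted p = 2.31e-07, limma).

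CDKN1B encodes p27, which holds cyclin E and CDK2 inactive in resting cells. It stood at 5.08 and 5.24 FPKM in Raji DMSO and at 14.2 and 13.2 FPKM in Raji chidamide libraries. In Raji-4RH cells it was 1.95 and 1.80 FPKM with DMSO and 7.07 and 6.22 FPKM with chidamide. Treated cells lay above untreated cells in both lines without overlap, and here the order of the lines was the reverse of that of CDKN1A. The mean ratio was 2.65 in Raji and 3.54 in Raji-4RH cells. The log2 differences were 1.25 ± 0.07 (SE; adjusted p = 3.06e-06, limma) and 1.41 ± 0.07 (adjusted p = 5.80e-07, limma). The 2 changes differed by 0.16 (95% interval -0.08 to 0.39; adjusted p = 0.230, limma), not past the threshold, but with a pseudocount of 0.1 the difference was 0.38 (adjusted p = 0.0329, limma).

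CDKN2B encodes p15, an inhibitor of CDK4 and CDK6. It was the least abundant gene tested, at 0.187 and 0.135 FPKM (15 and 11 reads) in Raji DMSO libraries and 0.407 and 0.485 FPKM (34 and 41 reads) in Raji chidamide libraries. In Raji-4RH cells it was 0.565 and 0.488 FPKM (43 and 42 reads) with DMSO and 2.43 and 2.14 FPKM (138 and 160 reads) with chidamide. The 2 treated Raji-4RH libraries lay alone above 1 FPKM, and CDKN2B passed the filter on low values only through them, so it had to differ. The mean ratio was 2.77 in Raji and 4.34 in Raji-4RH cells. The log2(FPKM + 1) differences were 0.32 ± 0.07 (SE; adjusted p = 0.00427, limma) and 1.10 ± 0.07 (adjusted p = 1.71e-06, limma), and their difference was 0.79 ± 0.10 (adjusted p = 3.55e-04, limma). At these levels that scale shrinks the change within a line. With a pseudocount of 0.1 the change was 1.07 ± 0.16 in Raji and 1.93 ± 0.16 in Raji-4RH cells. The difference between the lines was not shrunk in this way. On the reads recovered from the FPKM values, with voom and limma, that difference was 0.65 ± 0.42 (adjusted p = 0.236). With quantile normalization the change in Raji was 0.02 (adjusted p = 0.843, limma).

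CDKN2D encodes p19, the INK4 protein whose level is known to vary with the cell cycle. It stood at 10.5 and 10.3 FPKM in Raji DMSO and at 15.6 and 18.3 FPKM in Raji chidamide libraries. In Raji-4RH cells it was 5.61 and 7.13 FPKM with DMSO and 10.9 and 9.90 FPKM with chidamide. Treated cells lay above untreated ones in both lines, at nearly the same ratio (1.63 in each line). The log2 differences were 0.65 ± 0.11 (SE; adjusted p = 0.00105, limma) and 0.64 ± 0.11 (adjusted p = 7.25e-04, limma), and they differed by -0.01 (95% interval -0.36 to 0.34; adjusted p = 0.958, limma). The interval is wide, so the data do not show that the lines responded alike.

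CDKN2C encodes p18, an inhibitor of CDK4 and CDK6 that B cells use on their way to plasma cells. It was the highest CDK inhibitor in Raji DMSO, with 39.8 and 35.2 FPKM, and 26.4 and 26.99 FPKM in Raji chidamide. In Raji-4RH cells it was 15.5 and 16.0 FPKM with DMSO and 13.2 and 13.8 FPKM with chidamide. Its level fell in both lines, with log2 differences of -0.47 ± 0.07 (SE) in Raji (adjusted p = 3.63e-04, limma) and -0.21 ± 0.07 in Raji-4RH cells (adjusted p = 0.0188, limma). The smaller change in Raji-4RH cells, with a mean ratio of 0.858, lost its call without replicate 1 of either Raji-4RH group and without Raji-4RH DMSO replicate 2 (adjusted p from 0.0526 to 0.104, limma), and it was -0.10 with quantile normalization (adjusted p = 0.171, limma). The difference between the lines was 0.27 ± 0.09 (adjusted p = 0.0434, limma), and it kept its side of the threshold under 6 of 18 other settings.

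CDKN2A encodes p16, an inhibitor of CDK4 and CDK6, and ARF, which stabilizes p53. It stood at 18.2 and 15.6 FPKM in Raji DMSO and at 19.0 and 19.0 FPKM in Raji chidamide libraries. In Raji-4RH cells it was 24.6 and 26.1 FPKM with DMSO and 17.02 and 16.5 FPKM with chidamide. In Raji-4RH cells the treated libraries lay below the untreated ones and the level fell, with a log2 difference of -0.57 ± 0.07 (SE) (adjusted p = 1.26e-04, limma). In Raji the difference was 0.16 ± 0.07 (adjusted p = 0.0832, limma), with an interval from -0.003 to 0.33, and the 2 DMSO libraries lay further apart than the treated ones. Without Raji DMSO replicate 1 it was 0.27 (adjusted p = 0.0138, limma). The effects differed by -0.73 ± 0.10 (adjusted p = 6.80e-04, limma), and this difference stayed past the threshold under every setting that gave a value, in the range -0.83 to -0.63. CDKN2A was the one gene tested whose differences had opposite signs in the 2 lines.

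**Figure D3:**
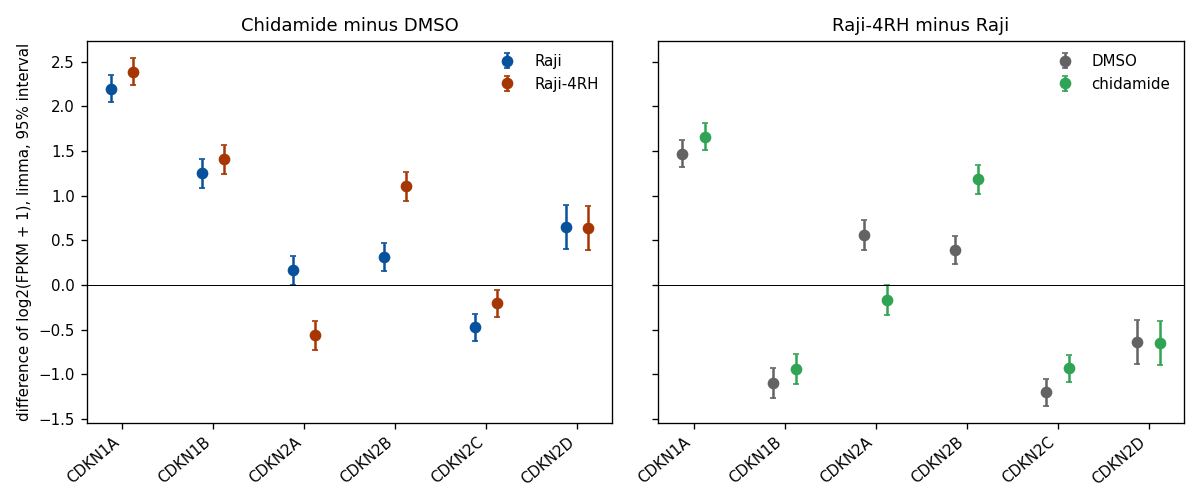
The left panel plots chidamide minus DMSO and the right panel Raji-4RH minus Raji (y axis, differences of log2(FPKM + 1) from limma, bars for 95% intervals) for the 6 genes tested (x axis). CDKN1A is at 2.20 and 2.39 on the left, and CDKN2A stands on opposite sides of 0 in the 2 lines.

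Before treatment, the lines already differed. Of the 6 genes tested, CDKN1A, CDKN2A and CDKN2B were higher in Raji-4RH DMSO and CDKN1B, CDKN2C and CDKN2D were lower, where 73.6% of all genes were called in either direction (41.2% higher and 32.4% lower). CDKN1A was 2.95 times and CDKN2A 1.497 times the Raji level. CDKN2B was 3.27 times as high, between 11 and 15 reads and 42 and 43 reads, and its log2(FPKM + 1) difference was 0.40 ± 0.07 (SE; adjusted p = 8.80e-04, limma), which with quantile normalization was 0.13 (adjusted p = 0.210, limma). CDKN1B, CDKN2C and CDKN2D stood at 0.363, 0.419 and 0.612 times the Raji level. With chidamide, CDKN1A was again higher in Raji-4RH cells (3.20 times) and CDKN1B, CDKN2C and CDKN2D lower (0.486, 0.505 and 0.614 times). CDKN2B was 5.13 times as high. It passed the filter on low values only through the treated Raji-4RH libraries, so a higher level there was built in. CDKN2A was -0.17 on the log2 scale between the treated lines (adjusted p = 0.0573, limma), where 79.3% of all genes were called (44.3% higher and 35.0% lower). These comparisons share libraries with those of chidamide, and they do not add independent evidence.

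The order of the levels changed with the group. In Raji DMSO, CDKN2C was highest, with CDKN2A second, CDKN1A and CDKN2D level with each other at 10.4 FPKM, and CDKN1B at 5.16 FPKM. In Raji chidamide, CDKN1A led with 51.5 ± 0.121 FPKM (SD, n = 2), before CDKN2C at 26.7 ± 0.395, CDKN2A at 19.0 ± 0.0377, CDKN2D at 16.9 ± 1.92 and CDKN1B at 13.7 ± 0.674. In Raji-4RH DMSO, CDKN1A led with 30.7 ± 2.71 FPKM and CDKN2A followed at 25.3 ± 1.06. In Raji-4RH chidamide, CDKN1A reached 165 ± 5.60 FPKM, while CDKN2A was at 16.8 ± 0.348, CDKN2C at 13.5 ± 0.459, CDKN2D at 10.4 ± 0.701 and CDKN1B at 6.64 ± 0.600. CDKN1A and CDKN2D in Raji DMSO did not differ beyond the spread of their libraries.

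Added over the 7 genes, the inhibitors reached 76.7 to 84.5 FPKM per library in both DMSO groups. With chidamide they reached 127 to 129 FPKM in Raji and 212 to 218 FPKM in Raji-4RH cells. The CIP/KIP genes held 18.7 to 20.1% of this sum in Raji DMSO, 49.96 to 51.7% in Raji chidamide, 39.98 to 41.0% in Raji-4RH DMSO and 79.4 to 80.5% in Raji-4RH chidamide libraries. CDKN1A alone held 76.1 to 77.7% of the sum in treated Raji-4RH cells. The INK4 genes added 61.3 to 68.7 FPKM in Raji DMSO libraries and 61.4 to 64.8 FPKM in Raji chidamide libraries. In Raji-4RH cells they added 46.2 to 49.7 FPKM with DMSO and 42.4 to 43.5 FPKM with chidamide. The sum of 13 CDK and cyclin genes, added after its values were seen, was 306 to 325 FPKM in the DMSO libraries, 207 to 208 FPKM in Raji chidamide and 123 to 126 FPKM in Raji-4RH chidamide libraries. The inhibitor sum was 0.612 to 0.626 of the CDK and cyclin sum in treated Raji cells and 1.72 times it in both treated Raji-4RH libraries, against 0.238 to 0.276 in the DMSO libraries. These sums, shares and ratios also depend on the gene lengths used.

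**Figure D4:**
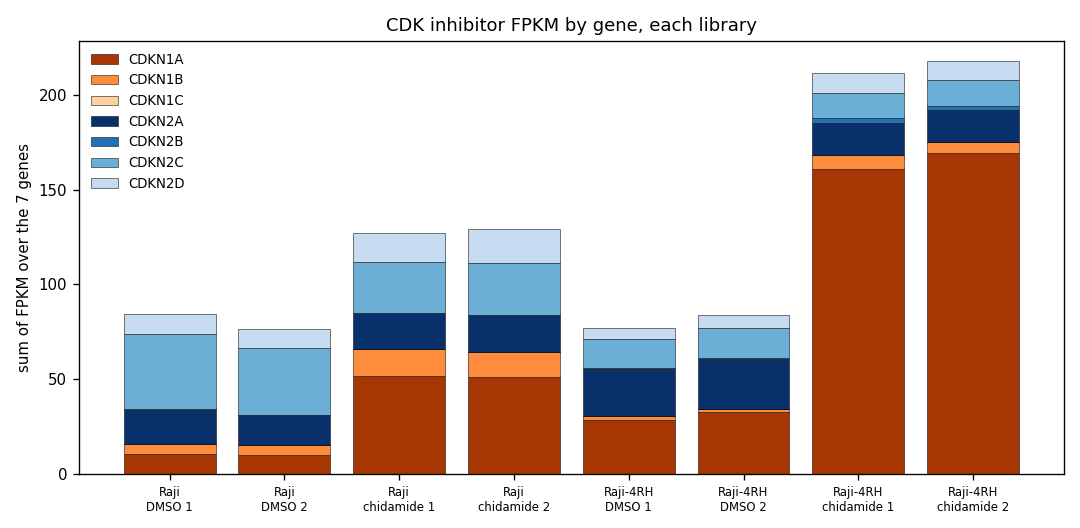
Stacked bars plot the summed FPKM of the 7 CDK inhibitor genes (y axis from 0) in each of the 8 libraries (x axis), with CIP/KIP genes in orange tones and INK4 genes in blue. The bars rise from 76.7 to 84.5 FPKM with DMSO to 212 to 218 FPKM in treated Raji-4RH libraries, where CDKN1A fills most of the bar.

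The genes around the inhibitors were read from lists of the pathway, which, like the members, were chosen with earlier results of these data known. The CDK and cyclin partners are the targets of the inhibitors. The counts of each list are to be read against all genes tested, of which 43.3% were higher and 31.6% lower in Raji-4RH cells and 31.5% higher and 28.5% lower in Raji cells. Of 11 tested, 9 were lower and 2 higher in Raji-4RH cells with chidamide, with a median of -1.19 on the log2 scale (all genes 0.09). Of the 2 higher genes, CCND1 stood at only 0.0569 FPKM with DMSO and 0.335 FPKM with chidamide. The other, CDK6, rose from 4.35 to 5.09 FPKM (by 0.19), whereas in Raji it was lower (-0.35). In Raji, 8 were lower, 0 higher and 3 not called (median -0.46, all genes 0.02). CCNA2, the cyclin of S phase, fell from a mean of 46.5 to 8.96 FPKM in Raji-4RH and from 66.3 to 28.5 FPKM in Raji cells, with log2 differences of -2.26 and -1.19. CDK1, the kinase of mitosis, fell from 44.0 to 13.6 FPKM in Raji-4RH cells (log2 difference -1.62), and its cyclin CCNB1 from 80.1 to 29.1 FPKM (log2 difference -1.43). In Raji, CDK2, the kinase partner of cyclins E and A, fell from 22.2 to 13.8 FPKM (log2 difference -0.65) and CCNB1 from 35.7 to 23.5 FPKM (log2 difference -0.59).

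Pocket proteins and E2F factors stand below the kinases. Of 10 tested, 7 were lower, 2 higher and 1 not called in Raji-4RH cells (median -0.83, with 74.9% of all genes called in either direction), and 6 lower, 1 higher and 3 not called in Raji (median -0.25, with 60.0% of all genes called). E2F2, E2F8 and E2F1, of which E2F1 and E2F2 activate replication genes, fell, with log2 differences of -2.70, -2.13 and -2.10 in Raji-4RH and -0.98, -1.05 and -0.87 in Raji cells. The pocket proteins were split. RB1 rose by 1.07 in Raji-4RH and by 0.67 in Raji cells, and RBL1 fell (-0.90 and -0.45). RBL2 rose by 0.47 in Raji-4RH cells and was not called in Raji (0.16). The subunits of the ubiquitin ligases that degrade p21 and p27 were lower in 8 and higher in 2 of 12 tested genes in Raji-4RH cells, with 2 not called (median -0.69). In Raji, 7 were lower, 1 higher and 4 not called (median -0.54). DTL, the receptor subunit for p21, fell from 12.6 to 1.68 FPKM in Raji-4RH cells (log2 difference -2.34), SKP2, the receptor subunit for p27, from 20.9 to 6.26 FPKM (log2 difference -1.59), and CKS1B, its cofactor, from 58.2 to 20.3 FPKM (log2 difference -1.48). In Raji, SKP2, the scaffold subunit CUL4A and UBAC1 also fell (-0.93, -0.79 and -0.76).

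Of 24 tested genes of the p53 pathway, 14 were higher and 7 lower in Raji-4RH cells, with 3 not called (median 0.43, with 43.3% of all genes higher and 31.6% lower), and 12 were higher and 6 lower in Raji, with 6 not called (median 0.18, with 31.5% of all genes higher and 28.5% lower). TP53INP1, a p53 target with a role in autophagy, rose from 1.88 to 19.6 FPKM in Raji-4RH cells (by 2.84 on the log2 scale) and from 1.44 to 8.998 FPKM in Raji (by 2.04). BTG2, an antiproliferative gene, rose by 1.88 in Raji-4RH and by 1.24 in Raji cells, GADD45A by 1.42 in Raji-4RH and BBC3, the gene of PUMA, by 1.38 in Raji cells. Of 26 regulators of CDK inhibitor transcription, 16 were higher, 6 lower and 4 not called in Raji-4RH cells (median 0.35), and 12 higher, 7 lower and 7 not called in Raji (median 0.27). ID2, an inhibitor of basic helix-loop-helix factors, rose from 15.3 to 68.6 FPKM in Raji-4RH (by 2.08) and from 2.01 to 8.31 FPKM in Raji cells (by 1.63). TFAP4, a repressor of CDKN1A, fell from 10.9 to 2.42 FPKM in Raji-4RH (log2 difference -1.80) and from 10.4 to 2.98 FPKM in Raji cells (log2 difference -1.51). FOXO4, a forkhead factor, rose by 1.218 in Raji-4RH cells and ID3 by 1.45 in Raji cells. The forkhead genes FOXO1 and FOXO3 were also higher, by 1.06 and 1.14 in Raji-4RH and by 0.69 and 1.31 in Raji cells. MYC was not called in Raji-4RH cells (-0.21, adjusted p = 0.0586, limma) or in Raji cells (0.06, adjusted p = 0.578, limma).

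**Figure D5:**
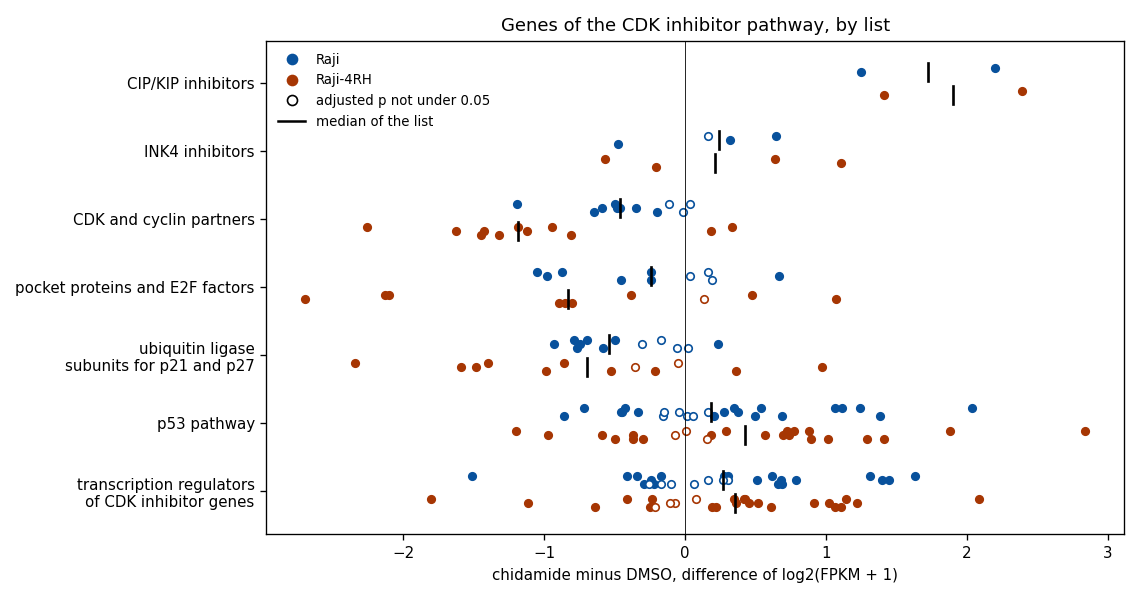
Points plot chidamide minus DMSO (x axis, difference of log2(FPKM + 1), limma) for each tested gene of 7 lists (y axis), blue for Raji and red-brown for Raji-4RH, open where the adjusted p was not under 0.05, with black ticks for the median of a list. The CIP/KIP genes lie to the right of 1 in both lines, and the CDK and cyclin partners have a median of -1.19 in Raji-4RH and -0.46 in Raji.

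Between the lines, the change of the partners with chidamide differed in 11 of 11 tested genes, 9 lower and 2 higher in Raji-4RH (median -0.67, where 48.8% of all genes were called, 27.2% higher and 21.7% lower, and the median of all genes was 0.04). CDK1, CCNA2 and CCNB1 differed by -1.16, -1.07 and -0.84 on the log2 scale. CDK6, 1 of the 2 higher genes, differed by 0.53. CCND1, the other, passed the filter on low values only through Raji cells. In Raji-4RH cells CCND1 stood at 0.0569 FPKM with DMSO and 0.335 FPKM with chidamide, so its differences rest on values near the floor. Of the 6 members tested, CDKN2B and CDKN2C passed in the higher direction and CDKN2A in the lower. For CDKN2B this direction was built in, since it passed the filter only through treated Raji-4RH libraries. For the line comparison with DMSO, the same list was split, with 5 genes higher, 5 lower and 1 not called in Raji-4RH cells, where 41.2% of all genes were higher and 32.4% lower. CDK6, the partner of D-type cyclins, was 17.2 FPKM in Raji and 4.35 FPKM in Raji-4RH cells (-1.76). CCNB1 was higher by 1.14 on the log2 scale in Raji-4RH cells and CCNB2 was -0.77. Of the p53 pathway, 13 genes were lower and 8 higher of 24 in Raji-4RH DMSO, against the same shares of all genes, with BAX at -2.21, RRM2B at -2.002 and DDB2 at -1.65. In the regulators, 13 of 26 were higher and 4 lower, and ID1 was at 0.794 FPKM in Raji and 96.3 FPKM in Raji-4RH DMSO.

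The summed level of the other cell type markers moved with the treatment: it was 5.41 to 5.46 FPKM in Raji DMSO, 11.7 to 13.5 FPKM in Raji chidamide, 3.33 to 4.03 FPKM in Raji-4RH DMSO and 18.3 to 18.6 FPKM in Raji-4RH chidamide. In treated Raji-4RH libraries, NKG7 was 5.96 and 4.70 FPKM, LYZ 4.13 and 4.06, CSF1R 2.94 and 3.08 and CD3E 2.94 and 4.10, whereas CD3D, the T cell receptor component, stayed at or below 0.539 FPKM and EPCAM at or below 0.0647 FPKM. LYZ and CD3E passed the filter on low values only through the treated Raji-4RH libraries, and CSF1R only through treated libraries. A rise with chidamide was therefore built in for these. Of 6 such markers tested, 5 were higher in treated Raji-4RH cells, where 43.3% of all genes tested were higher. The part of this in the levels of the CDK inhibitor genes was not tested.

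For each gene tested, the 3 genes with the nearest profile over the 8 libraries were named, by the root mean square difference of centred log2(FPKM + 1) values. These were chosen by the profile and are a description. For CDKN1A they were PTMS (0.181), H1FX (0.222) and GABARAPL1 (0.235), and for CDKN1B they were LIPA (0.0574), GPR160 (0.104) and BANK1 (0.117). H1FX, a linker histone, ran from 14.1 FPKM in Raji DMSO to 153 FPKM in Raji-4RH chidamide, near the levels of CDKN1A. For CDKN2A they were SAFB2 (0.0638), BNIP1 (0.0729) and EP400 (0.0905), for CDKN2B ERC1 (0.0646), ANK3 (0.0803) and GGACT (0.0835), for CDKN2C ZXDB (0.0417), SFMBT1 (0.0674) and PRKCE (0.0675), and for CDKN2D SLCO3A1 (0.0944), F11R (0.0973) and NUDT6 (0.0984). The range of a profile sets how small this distance can be, and it was 3.93 on the log2 scale for CDKN1A and 0.702 for CDKN2A.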

How the data were processed

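RNA-seq was made from 8 libraries in 4 groups, 2 per group, of the established lines Raji and Raji-4RH. The deposited table, made by the authors, gives FPKM and the length of each gene. The submitters' processing notes name HISAT2 2.0.5, SAMtools 1.7, HTSeq 0.9.1 and DESeq2 1.22.2 without roles. FPKM multiplied by length and library total gave whole reads in 100% of non-zero values (within 0.05 read), so depth and counting intervals rest on recovered reads; intervals cover counting error only. The last 662 rows repeat the first 662, and the values of later genes lie below their labels, so they were moved by fixed shifts and rescaled to the gene's length (18143 genes placed, 90.7% to 93.2% of reads). The genes and lists were chosen with earlier results of these data known. Limma 3.58.1 in R 4.3.3 (lmFit, eBayes with trend) was fitted to log2(FPKM + 1) in 1 fit over the 8 libraries, with genes kept (10710) where 2 or more libraries reached 1 FPKM, and Benjamini-Hochberg adjustment. It was tested on simulated data for chidamide in Raji-4RH: of 194 changed genes in 10045, 184 were called, with 20 unchanged ones. The simulation changed few genes, in 1 group, and gave the other groups equal means. In the data 74.9% of genes were called for this comparison, a setting that the simulation does not cover. From each list, the 3 called genes with the largest log2 change and a mean of at least 5 FPKM were named, and the overlapping antisense genes. MYC, FOXO1, FOXO3, CCND1, CDK6, RB1, RBL1 and RBL2 were given besides. Alternatives were other pseudocounts, filters, scalings, voom on the recovered reads, a replicate block, the rows as deposited and each library left out. Coordinates are GENCODE v29 on GRCh38, and promoters are RefSeq on GRCh38.p14. A further marker that was looked up is not reported here.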

Additional observations from a re-analysis of the deposited data

Results flagged for a closer look

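The effect of chidamide on 3 of the 6 members tested differed between Raji-4RH and Raji cells in the interaction test of limma, where 48.8% of all genes were called, so the count is near that of all genes. For CDKN2A the difference, Raji-4RH minus Raji, was -0.7282 on the log2(FPKM + 1) scale (adjusted p = 6.80e-04), and the gene fell in Raji-4RH cells. For CDKN2B it was 0.7883 (adjusted p = 3.55e-04), from 138 to 160 reads in treated Raji-4RH libraries against 34 to 41 in treated Raji libraries. CDKN2B was tested only because of its level in treated Raji-4RH cells, and with voom on the recovered reads the difference was 0.6492 (adjusted p = 0.236). For CDKN2C it was 0.2656 (adjusted p = 0.0434), where both lines fell, and it lost its call under 12 of 18 other settings.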

How the results depend on the processing

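Over the 5 comparisons, CDKN1A, CDKN1B and CDKN2D kept their direction and call in the 4 comparisons of groups under every setting run. In the interaction, CDKN1B passed with a pseudocount of 0.1 (0.3821), CDKN1A with quantile normalization (0.3696), and CDKN2D changed sign without a call (0.01616 with a pseudocount of 0.1, 0.000219 with voom, and -0.161 to 0.1381 when a library was left out: 0.005848, 0.09784, 0.1381 and 0.05139 in the 4 that turned it). The CDKN2C interaction lost its call with a pseudocount of 0.1 (0.2663), no filter (0.2656), median-centred libraries (0.2304), limma without trend (0.2656), a replicate block (0.2656, adjusted p = 0.0676) and voom (0.2686), and ranged from 0.1805 to 0.3507 when a library was left out. CDKN2B lost its interaction call with voom (0.6492). Quantile normalization gave -0.1024 for CDKN2C in Raji-4RH, 0.2359 for CDKN2A and 0.02243 for CDKN2B in Raji, and 0.1262 for CDKN2B between the DMSO groups; it moved the median of all genes in Raji-4RH cells from 0.09 to -0.02. CDKN2A between the treated lines passed with median-centred libraries (-0.2493), the compared libraries alone (-0.1697) and voom (-0.1803), and ranged from -0.1897 to -0.1498 with a library left out. Left-out libraries gave 0.06007 to 0.2657 for CDKN2A in Raji and -0.2396 to -0.1749 for CDKN2C in Raji-4RH cells. In the rows as deposited, CDKN2B reversed, to -0.9508 in Raji-4RH, -0.2422 in Raji and -0.7086 for the interaction. With only genes that share a row with their label (4331 tested), 3326, 2702, 2178, 3258 and 3463 genes were called, a smaller table by construction. CDKN2A and CDKN2B have no value there, CDKN2A has none in the rows as deposited, and CDKN2B has none with a mean of at least 1 FPKM. Voom on the recovered reads called 8113 genes in Raji-4RH and 6662 in Raji cells with chidamide. The cause of the other changes was not tested. The replicate numbers did not pair the libraries (correlations of deviations from -0.155 to 0.166 between the groups compared). Between Raji DMSO and Raji-4RH chidamide, which meet only in the interaction, the correlation was -0.279. The replicate block (7886 genes called in Raji-4RH and 6183 in Raji cells) changed no other call of a member. With the replicate numbers crossed between the DMSO groups, an alternative chosen after seeing the data, 7969 genes were called, against 7748 with the block and 7882 without it.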
